A study of Mus musculus with 18 samples.

Results

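A list of 30 genes of cholesterol and fatty acid synthesis was followed across the 18 libraries of the study. It holds the enzymes that lead from acetyl-CoA through mevalonate and squalene to cholesterol, the enzymes that make, lengthen and desaturate fatty acids, and the control and transport genes Srebf1, Srebf2, Insig1 and Stard4. All 30 symbols were present among the 21881 in the count tables, with Sc4mol standing for the gene now named Msmo1, and 29 of them passed the filter on low counts that left 16231 genes for testing. The exception was Hmgcs1, which is listed at 0 counts in all 18 libraries. The members are the listed symbols themselves and the rule names no measured value, but the list was drawn up with earlier results of these data known.

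The RNA came from C57BL6 BRE-GFP reporter embryos at embryonic day 11, from sorted cells of the aorta-gonad-mesonephros (AGM), where the first hematopoietic stem cells arise. Cells were divided by CD31 and c-Kit into endothelial-enriched cells (EC, CD31 positive and c-Kit negative), a gate for hematopoietic stem and progenitor cells (HPSC, CD31 positive and c-Kit positive) and one enriched for mesenchyme (MC, CD31 negative and c-Kit negative), and each of these into a BRE-GFP positive and a negative fraction, where GFP reports transcription from a BMP-responsive element. The AGM was taken fresh, or after explant culture in medium holding BMP and Hedgehog (explant), or after such culture with added cyclopamine, a plant steroidal alkaloid that blocks the Hedgehog transducer Smoothened. That gives 18 combinations with 1 library each, named below by population, culture and fraction. All groups share the reporter strain and the embryonic day, and the cyclopamine dose, the length of culture and the number of embryos pooled were not stated in the labels. Nothing in the labels says that the libraries came from separate embryos or sorts, so the p-values measure only the spread between these libraries, part of which may be technical.

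Cells make cholesterol by condensing acetyl-CoA to HMG-CoA, reducing it to mevalonate, joining the resulting isoprene units into squalene, and closing squalene to lanosterol, whose ring is then trimmed and reduced. The transcription factors SREBP-2 and SREBP-1, encoded by Srebf2 and Srebf1, raise the genes of this pathway and of fatty acid synthesis when membrane sterol is low, and Insig1 holds their precursors in the endoplasmic reticulum when sterol is plentiful. Sterols also enter Hedgehog signalling directly, since Hedgehog ligands carry a cholesterol moiety and Smoothened binds sterols.

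The start-site regions of the genes are shown first because many of them share a few short motifs. RefSeq promoters on GRCm38.p6, each running from 250 bases before to 50 bases after a start site, were matched for 23 of the 30 genes. The CCAAT box, searched as those letters on either strand, was present in 19 of those 23 genes, against 41.1% of all 27025 genes with a promoter in the table. The GC box, searched as GGGCGG on either strand, was likewise present in 19 of 23, against 38.2% of all genes. The longer sterol regulatory element pattern TCACNCCAC was present in 1 of the 23 genes, Hmgcs1 (4.35%), against 1.44% of all genes. The classical sterol regulatory element in full, with no free letter, was present in 0 of the 23, against 0.0999% of all genes. A match describes letters only and was not tested for binding. The 150 bases directly before the start site are given 5′ to 3′ on the gene's strand, in lower case with matches to any of these motifs on either strand in capitals; where motif matches touch or overlap they form a single capital run. The first is Hmgcs1 (chr13:119690201-119690350, plus strand), the only one of the 23 genes searched with the longer pattern, and the gene with no counts. Fasn (chr11:120824548-120824697, minus strand) and Acly (chr11:100528001-100528150, minus strand) encode steps that lead to fatty acids. Ebp (chrX:8193513-8193662, minus strand) is the sterol enzyme whose levels followed the other genes least among the sterol ring enzymes.
Hmgcs1: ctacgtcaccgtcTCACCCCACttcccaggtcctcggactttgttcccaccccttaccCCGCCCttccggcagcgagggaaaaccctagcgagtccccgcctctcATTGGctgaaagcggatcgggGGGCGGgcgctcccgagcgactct
Fasn: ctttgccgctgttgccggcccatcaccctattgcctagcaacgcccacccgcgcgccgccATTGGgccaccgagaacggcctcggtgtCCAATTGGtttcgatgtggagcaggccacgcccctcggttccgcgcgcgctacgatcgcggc
Acly: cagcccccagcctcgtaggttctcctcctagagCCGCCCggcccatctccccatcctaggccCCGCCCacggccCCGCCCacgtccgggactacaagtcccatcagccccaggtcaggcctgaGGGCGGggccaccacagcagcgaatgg
Ebp: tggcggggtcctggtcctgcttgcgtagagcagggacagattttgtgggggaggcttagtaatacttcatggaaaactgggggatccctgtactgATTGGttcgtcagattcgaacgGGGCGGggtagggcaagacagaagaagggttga
Hmgcs1 thus holds 1 match to the longer pattern, 1 CCAAT box and 2 GC boxes in this stretch. Fasn holds 3 CCAAT boxes, of which a pair overlaps, and no GC box. In the 150 bases shown, Acly has 4 GC boxes and no CCAAT box, and Ebp has 1 of each. Acly is among the 19 genes with a CCAAT box through a match after the start site, outside the bases shown.

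Libraries held 3041249 to 21972063 counts on genes, fewest in HPSC cyclopamine negative, then in MC fresh positive (4547062). Reads outside annotated features were 35.0 to 49.4% of reads counted on genes, on more than one gene or on no feature in explant libraries, 19.5 to 33.0% in cyclopamine libraries and 21.7 to 42.0% in fresh libraries, so explant and cyclopamine libraries did not overlap in this share. The gates, which enrich and do not purify, were checked against marker lists: summed endothelial markers were at 59.0 to 171 CPM (counts scaled to library size, with TMM factors) in MC against 297 to 6662 in HPSC and 387 to 6522 in EC. Summed hematopoietic progenitor markers were at 921 to 1848 CPM in HPSC against at most 637 in EC and 272 in MC. The endothelial medians were 2061 CPM in HPSC and 1184 in EC. Mesenchymal markers reached 739 to 5175 CPM in EC, overlapping the 1914 to 5678 CPM of MC, and only 249 to 683 CPM in HPSC. EC libraries thus also held mesenchymal transcripts, and macrophage (705 to 4255 CPM) and megakaryocyte markers (662 to 3283 CPM). Both were highest in EC fresh negative, where endothelial markers were at 387 CPM. Summed erythroid markers were at 26.3 to 2136 CPM in EC, 1166 to 10027 in HPSC and 338 to 25184 in MC. In sorted bulk RNA, fewer cells of a type and less RNA per cell cannot be told apart.

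The list as a whole took 0.211 to 0.594% of the gene counts of a library. Levels between genes are compared here as mean CPM per kilobase of merged exons. On that scale Scd2, a stearoyl-CoA desaturase that makes monounsaturated fatty acids, was highest at 178 CPM per kilobase. Acat2, which condenses acetyl-CoA units at the entry to the mevalonate pathway, followed at 107, and Acly, which cleaves citrate to cytosolic acetyl-CoA, at 82.0. The mevalonate kinases differed: Pmvk stood at 57.3 and Mvk at 11.3 CPM per kilobase. Among the sterol ring enzymes, Cyp51 (lanosterol demethylase) at 38.5, Sc4mol (sterol methyl oxidase) at 34.5, Nsdhl at 34.3 and Ebp at 34.0 CPM per kilobase were close together, with Dhcr7, the last reductase, at 20.8 and Tm7sf2, a sterol reductase, at 1.86. Of the genes of sterol control and transport, Insig1 was at 20.7, Stard4 (a sterol carrier) at 4.97, Srebf1 at 3.68 and Srebf2 at 3.44 CPM per kilobase. Acaca, the acetyl-CoA carboxylase that commits carbon to fatty acids, was lowest of the detected genes at 0.976, below Idi1 (isopentenyl diphosphate isomerase) at 1.07.

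Hmgcs1, the enzyme that makes HMG-CoA (GRCm38 chromosome 13, 119690379 to 119708260, plus strand, 11 merged exons), had no count in any library, while every other enzyme of the list was detected. An antisense gene, Gm48342, covers 12.1% of its exonic bases in GENCODE M21, and how strand was handled in counting is not given in the sources used. Which step of counting or annotation gave the zeros was not tested, and Hmgcs1 is not read as unexpressed. Several other members share exonic bases with a neighbour and their counts are uncertain to that extent: Fdps with Gm43738 (26.7%, same strand), Fdft1 with Ctsb (18.3%, opposite strand), Tm7sf2 with Vps51 (12.1%, same strand) and Idi1 with Gm48574 (9.22%, opposite strand). Zeros in single libraries were few. Tm7sf2 and Hsd17b7 were at 0 in HPSC fresh positive, Fads2 in HPSC cyclopamine negative and Stard4 in EC cyclopamine negative.

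Across the 18 libraries the spread differed several-fold between genes. Scd1, the other stearoyl-CoA desaturase, varied most, with a coefficient of variation of 110% (lowest 0.754 CPM in HPSC cyclopamine negative, median 46.1, highest 295 in EC cyclopamine positive). Fads2, the delta-6 desaturase of polyunsaturated fatty acids, had 85.3%, Stard4 65.9%, Lss (lanosterol synthase) 62.3% and Insig1 61.7%. Pmvk varied least at 26.0% (54.7 to 154 CPM), followed by Acaca at 29.97% (9.94 to 25.8 CPM) and Mvd, the mevalonate diphosphate decarboxylase, at 32.3% (17.6 to 62.9 CPM). The mean log2 CPM over the 29 genes was lowest in HPSC cyclopamine negative (4.95) and highest in EC cyclopamine positive (6.73), and the 6 HPSC libraries lay between 4.95 and 5.70.

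**Figure D1:**
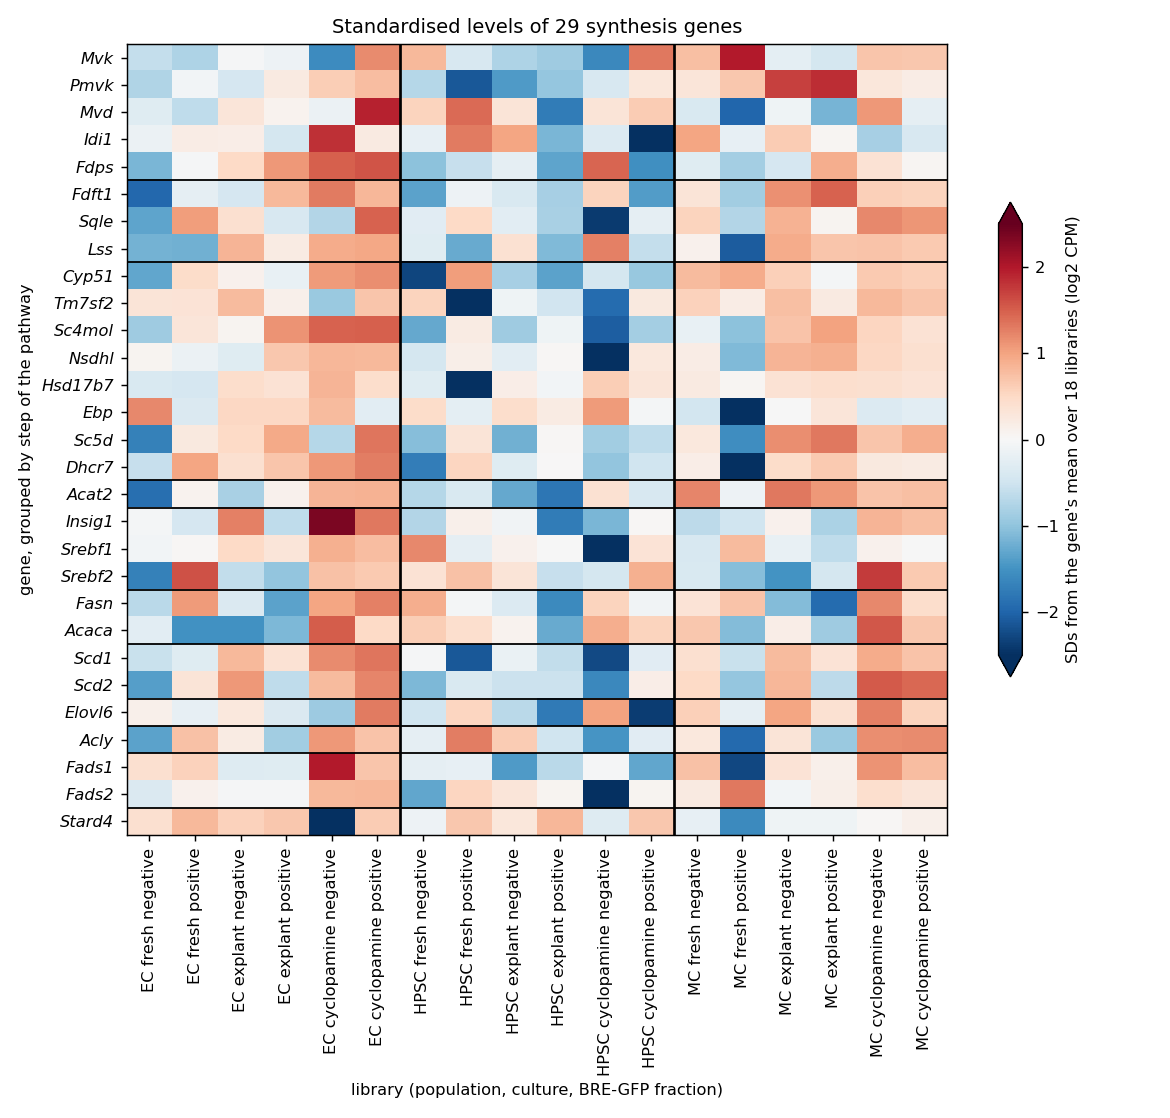
Each row is 1 of the 29 synthesis genes that passed the filter, in the order of the gene list, and each column 1 library. Colour is the distance of the log2 CPM from that gene's mean over the 18 libraries, in SDs, clipped at the ends of the scale. Horizontal lines mark a change of step between neighbouring rows, and some steps recur further down. The mean log2 CPM of the genes is 4.95 to 5.70 in the HPSC columns, 5.42 to 6.73 in the EC columns and 5.27 to 6.45 in the MC columns.

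Levels of most of these transcripts were below those of MC in HPSC, and 3 genes passed the test. Acat2, Scd1 and Cyp51 were lower in HPSC, by 2.22-fold, 5.65-fold and 2.21-fold. They were the only genes of the list called in this contrast by edgeR's quasi-likelihood test (Benjamini-Hochberg adjusted p under 0.05 over all tested genes, with culture and fraction as blocks), all lower, against 5.85% of all genes called lower and 9.95% called in either direction. At an unadjusted p under 0.05 there were 9 genes of the list, against 25.1% of all genes. The 3 of 29 are 10.3%, near the background in either direction. DESeq2 called 5 of 29 (23% of all genes with an adjusted p) and limma-voom 7 (17.7% of all genes). The fitted change was below 0 for 23 of the 29 genes, with a median of -0.66 on the log2 scale, where all tested genes had a median of -0.38 and 36.6% of them were above 0. Of the 29 genes, 12 lay above that median of all genes. The median over the list was below 0 in 5 of 6 matched pairs and at 0.61 in the fresh positive pair, whose MC library had the second fewest counts.

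The 3 genes lie on GRCm38 chromosome 17 (Acat2, 12942890 to 12960747), chromosome 19 (Scd1, 44394455 to 44407879) and chromosome 5 (Cyp51, 4081145 to 4104746), all on the minus strand, and counts were taken per gene. Acat2 stood at 97.6 to 296 CPM in HPSC (median 184) and at 228 to 472 CPM in MC (median 388). The ranges overlapped, but HPSC was lower in all 6 matched pairs, with a log2 fold change of -1.15 ± 0.33 (SE, edgeR adjusted p = 0.0350). Scd1 stood at 0.754 to 32.9 CPM in HPSC (median 16.9) and at 13.8 to 153 CPM in MC (median 86.8). It was lower in HPSC in all 6 pairs, and only the MC fresh positive library, at 13.8 CPM, lay within the HPSC range (log2 fold change -2.497 ± 0.71 SE, edgeR adjusted p = 0.0351). Cyp51 stood at 40.1 to 272 CPM in HPSC (median 89.6) and at 144 to 253 CPM in MC (median 212). The HPSC fresh positive library was the highest of all 12, and HPSC was lower in the other 5 pairs (log2 fold change -1.14 ± 0.34 SE, edgeR adjusted p = 0.0414). Each of the 3 calls was lost without certain single libraries. With each of the 18 libraries left out in turn, Acat2 passed in 11 fits, Scd1 in 7 and Cyp51 in 6, and the adjusted p ranged from 0.0219 to 0.128, from 0.0114 to 0.0967 and from 0.0125 to 0.124. The log2 fold change of Scd1 ranged from -3.22 without HPSC fresh negative to -2.06 without HPSC cyclopamine negative. Acat2 was lost without HPSC cyclopamine positive, HPSC explant negative or positive, HPSC fresh negative, MC explant negative or positive, or MC fresh negative. Scd1 was lost without EC cyclopamine positive, any MC library, or an HPSC library other than fresh negative and cyclopamine negative. Cyp51 was lost without either EC explant library, any MC library other than fresh positive, or any HPSC library other than fresh positive.

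By step, 7 of 8 sterol ring enzymes had fitted values below 0, with a median of -0.90 over the 8, as had all 3 squalene and lanosterol enzymes (median -0.65) and all 4 desaturases (median -0.96). Of the 4 control and transport genes 3 had values above 0 (median 0.12). Below the threshold, Pmvk (log2 fold change -0.66 ± 0.27 SE, edgeR adjusted p = 0.138) and Scd2 (-0.77 ± 0.29 SE, edgeR adjusted p = 0.109) had the next lowest adjusted p. Ebp, the sterol isomerase, went the other way at 0.997 ± 0.44 (SE, edgeR adjusted p = 0.170), with 88.2 ± 35.0 CPM (SD, 6 libraries) in HPSC and 49.5 ± 26.3 in MC. Fasn, the fatty acid synthase, was at -0.01 ± 0.30 (log2, SE) and Acly at -0.07 ± 0.32. Among marker lists, all 6 mesenchymal genes were called lower in HPSC than in MC (median log2 fold change -3.20) and the steroidogenic adrenal and gonad markers had a median of -2.44 with 1 of 6 called. Their part in the 3 calls was not tested.

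**Figure D2:**
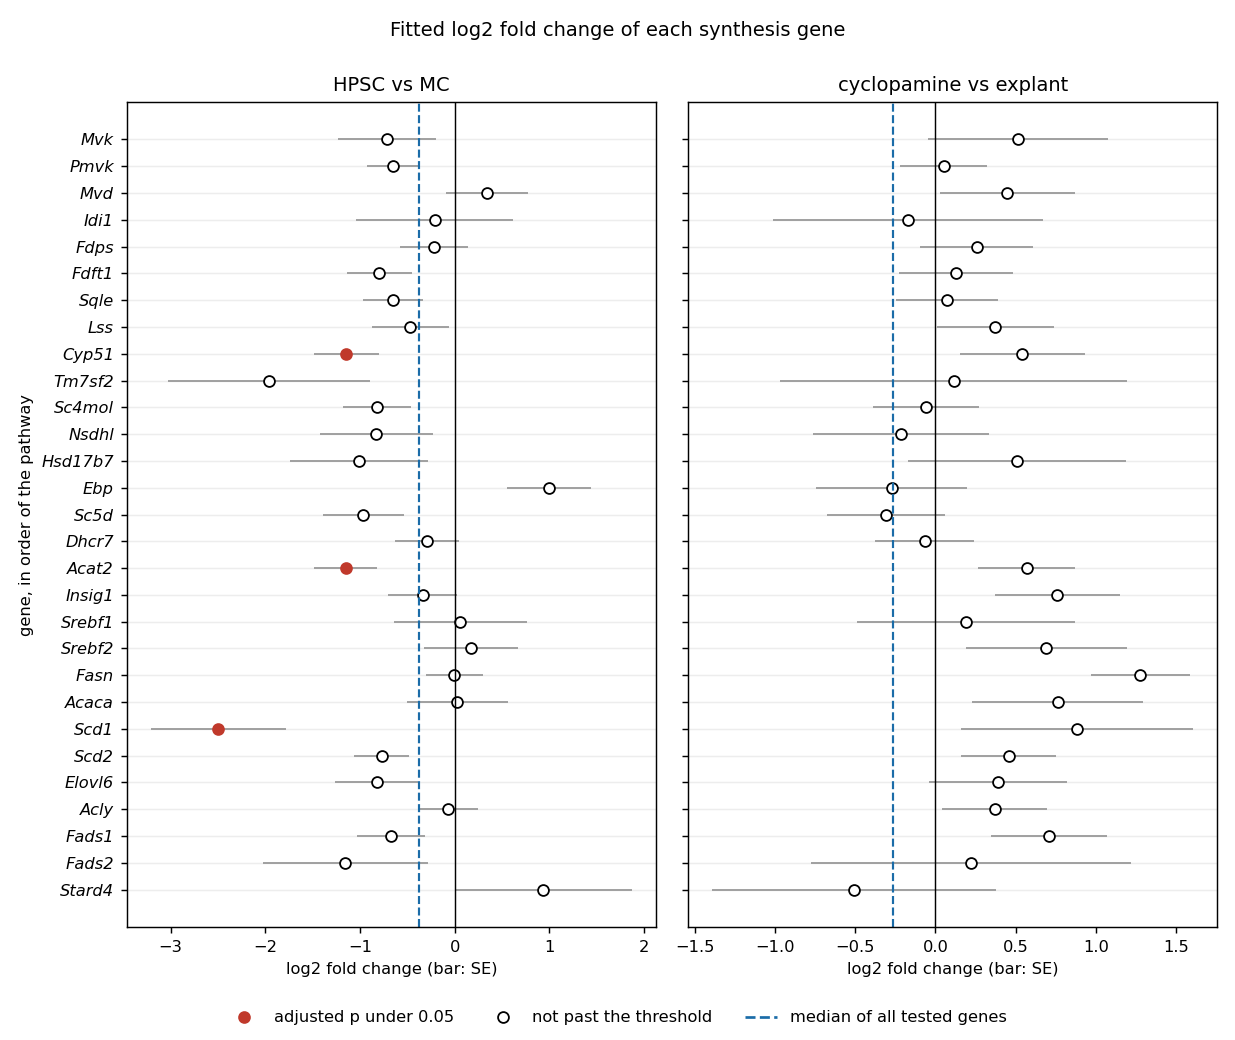
Fitted log2 fold change of each of the 29 genes (points, bars are 1 SE) between HPSC and MC on the left and between cyclopamine and explant on the right; the dashed line is the median of all tested genes and filled points passed the adjusted threshold. On the left 23 of 29 points lie below 0 and 3 are filled, and on the right 22 of 29 lie above 0, 26 are right of the dashed line and none is filled.

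Most genes also had lower fitted values in HPSC than in EC, but none passed. With edgeR's quasi-likelihood test 0 of 29 genes were called at an adjusted p under 0.05 (0.32% of all genes), 5 had an unadjusted p under 0.05 (9.32% of all genes), and DESeq2 called 1 of them, Scd1 (5.2% of all genes), and limma-voom 0 (1.4%). The fitted value was below 0 for 25 of 29 genes, with a median of -0.45 against -0.17 for all genes, of which 41.7% were above 0. In the matched pairs the list median was 0.17 in fresh negative, with 18 of 29 genes higher in HPSC, and -0.09 in fresh positive, with 13 higher. In the 4 cultured pairs it was -0.42 to -0.95, with 5 to 9 genes higher. Whether fresh and cultured pairs differ was not tested. Scd1 had 13.9 to 295 CPM in EC (median 93.2) against 0.754 to 32.9 in HPSC, a log2 fold change of -2.92 ± 0.76 (SE, edgeR adjusted p = 0.142), lower in 5 of 6 pairs. Without EC fresh negative, the EC library with least Scd1 at 13.9 CPM, its edgeR adjusted p was 0.0341. That was the only 1 of 18 fits with a library left out in which Scd1 passed, and its adjusted p reached 0.404 in these fits. Sc4mol had 111 to 428 CPM in EC (median 283) and 58.1 to 206 in HPSC (median 114), lower in all 6 pairs (-1.11 ± 0.36 SE, edgeR adjusted p = 0.273). Cyp51 was at -0.84 ± 0.34 (SE, edgeR adjusted p = 0.427), lower in 5 of 6 pairs. The ranges of all 3 overlapped. Sc4mol, Dhcr7 and Fads1 were lower in every pair, 3 of 29 genes where 3.35% of all genes were. All 8 sterol ring enzymes and all 4 desaturases had fitted values below 0, with medians of -0.77 and -0.87. Of the 6 mesenchymal markers 5 were called lower in HPSC than in EC (median log2 fold change -2.51), and summed erythroid markers were higher in HPSC in all 6 pairs. Their part in these values was not tested.

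Between MC and EC, which share their libraries with the comparisons above, no gene passed and the fitted values were spread around 0. The median log2 fold change was 0.03 against 0.20 for all genes, 16 of 29 genes were above 0 (60.8% of all genes), and edgeR called 0 of 29 (2.54% of all genes), as did DESeq2 (8.07%) and limma-voom (4.81%), with 2 genes at an unadjusted p under 0.05 (11.4% of all genes). With any single library left out the list median ran from -0.11 without EC fresh negative to 0.15 without MC fresh positive, and 12 to 17 genes were above 0. Ebp was lowest relative to EC, with 3.79 to 83.1 CPM in MC (median 50.7) and 48.4 to 171 in EC (median 98.0), a log2 fold change of -1.09 ± 0.44 (SE, edgeR adjusted p = 0.306), and the lowest MC value came from MC fresh positive. Acat2 was at 0.70 ± 0.33 (SE, edgeR adjusted p = 0.433), higher in 3 of 6 pairs. Insig1 was lower in MC in all 6 pairs (-0.54 ± 0.36 SE, edgeR adjusted p = 0.655), at 37.1 to 86.7 CPM against 40.1 to 188 in EC, and the ranges overlapped. Acaca was higher in MC in all 6 pairs at a fitted 0.25 ± 0.53 (SE). Insig1 and Acaca were the only genes of the list to move one way in every pair, 1 of 29 in each direction. The share of all genes that did so is not given here.

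**Figure D3:**
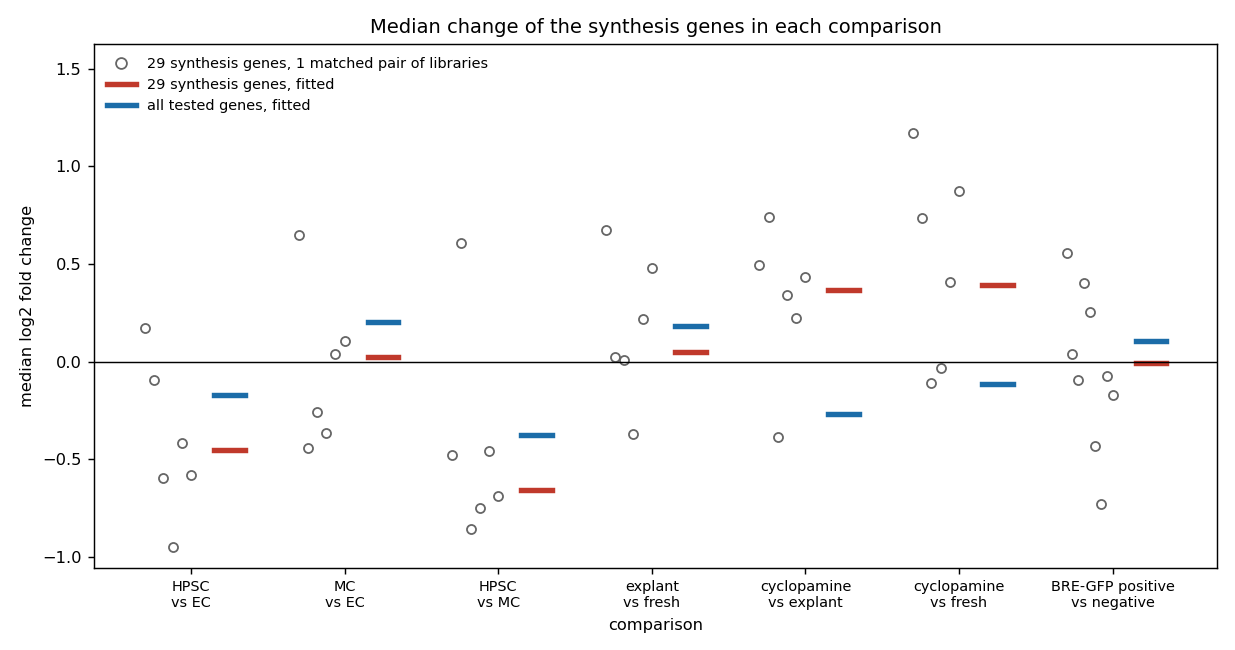
Open circles give the median log2 ratio of the 29 genes in each matched pair of libraries (6 pairs for population and culture, 9 for BRE-GFP), red bars the median fitted log2 fold change of the 29 genes and blue bars that of all tested genes. The red bar is above the blue one in both cyclopamine comparisons. It is below the blue one in every other comparison, which includes both HPSC comparisons, MC against EC, explant against fresh and BRE-GFP.

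Cyclopamine libraries had more of most of these transcripts than explant libraries, with Fasn and Acaca above every explant library, although no gene passed edgeR's test. EdgeR called 0 of 29 genes and 0 of all 16231 (0%), with 1 gene of the list, Fasn, and 8.13% of all genes at an unadjusted p under 0.05, while DESeq2 (1.06% of all genes) and limma-voom (0.191%) each called Fasn alone of the list. Fitted values were above 0 for 22 of 29 genes, where 34.2% of all genes were. The list median was 0.37 against -0.27 for all genes, and 26 of 29 genes lay above the median of all genes. Without the filter on low counts these medians were 0.36 and -0.45, so the reference depended on weakly expressed genes. Cyclopamine libraries had counts on 10297 to 17118 genes and explant libraries on 14010 to 18816. The part of expression level and detection in the gap was not tested. The median over the list was above 0 in 5 of 6 matched pairs, from 0.22 in MC negative to 0.74 in EC positive, and at -0.38 in HPSC negative, the pair with the library of fewest counts. With any single library left out, 19 to 25 of the 29 genes were above 0. Without the 2 libraries of fewest counts 24 of 29 genes were above 0 with a median of 0.50.

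Fasn, which builds palmitate, lies on GRCm38 chromosome 11 (120805846 to 120824547, minus strand). Its level was 33.5 to 73.2 CPM in explant libraries (median 47.7) and 82.7 to 160 CPM in cyclopamine libraries (median 126). The groups did not overlap and each of the 6 pairs was higher with cyclopamine, at a log2 fold change of 1.28 ± 0.31 (SE, 2.42-fold, edgeR adjusted p = 0.358, DESeq2 adjusted p = 0.00405, limma-voom adjusted p = 0.0472). Acaca lies on the plus strand of the same chromosome, from 84129672 to 84401651. Its level was 9.95 to 16.8 CPM in explant (median 11.7) and 18.6 to 25.8 CPM in cyclopamine libraries (median 20.4). Its groups did not overlap either (0.76 ± 0.53 SE, edgeR adjusted p = 0.885). Thus 2 of 29 genes were higher with no overlap, where 0.0678% of all genes were, and 3 of 29, these and Cyp51, were higher in every pair, where 1.32% of all genes were. Insig1 was at 22.5 to 107 CPM in explant and 30.9 to 188 in cyclopamine libraries (0.76 ± 0.39 SE, edgeR adjusted p = 0.684), and Fads1, the delta-5 desaturase, at 50.7 to 126 and 53.4 to 297 CPM (0.71 ± 0.36 SE, edgeR adjusted p = 0.684). Both overlapped, and both were higher in 5 of 6 pairs.

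By step, all 3 fatty acid synthesis genes (median 0.76), all 4 desaturases (median 0.58) and both acetyl-CoA genes (median 0.47) had fitted values above 0. Of the sterol ring enzymes 3 of 8 were above 0, with a median of -0.06. Cyp51 among them was higher in all 6 pairs (0.54 ± 0.39 SE, edgeR adjusted p = 0.896). The share of reads outside annotated features differed between these libraries, as given above. With that share as a covariate, an alternative added after the data were seen, 9 of 29 genes were above 0 and the median over the list was -0.44, against -0.45 for all genes. Fasn was then at 1.01 with an adjusted p of 1.0, and Fads1 turned to -0.044. Culture and this share cannot be told apart here, since explant and cyclopamine libraries do not overlap in it. The values of 3 marker lists that differed in most pairs of the same comparison follow. None could have a called gene, since edgeR called 0 of all genes in it. Proliferation genes had 6 of 8 fitted values above 0 (median 0.35). Summed erythroid markers were lower with cyclopamine in 5 of 6 pairs, at 26.3 to 10027 CPM against 427 to 25184 CPM in explant libraries, and HPSC negative was the exception. Summed mesenchymal markers were higher in all 6 pairs, at 426 to 5678 CPM against 249 to 5180 CPM. Their part in these values was not tested.

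**Figure D4:**
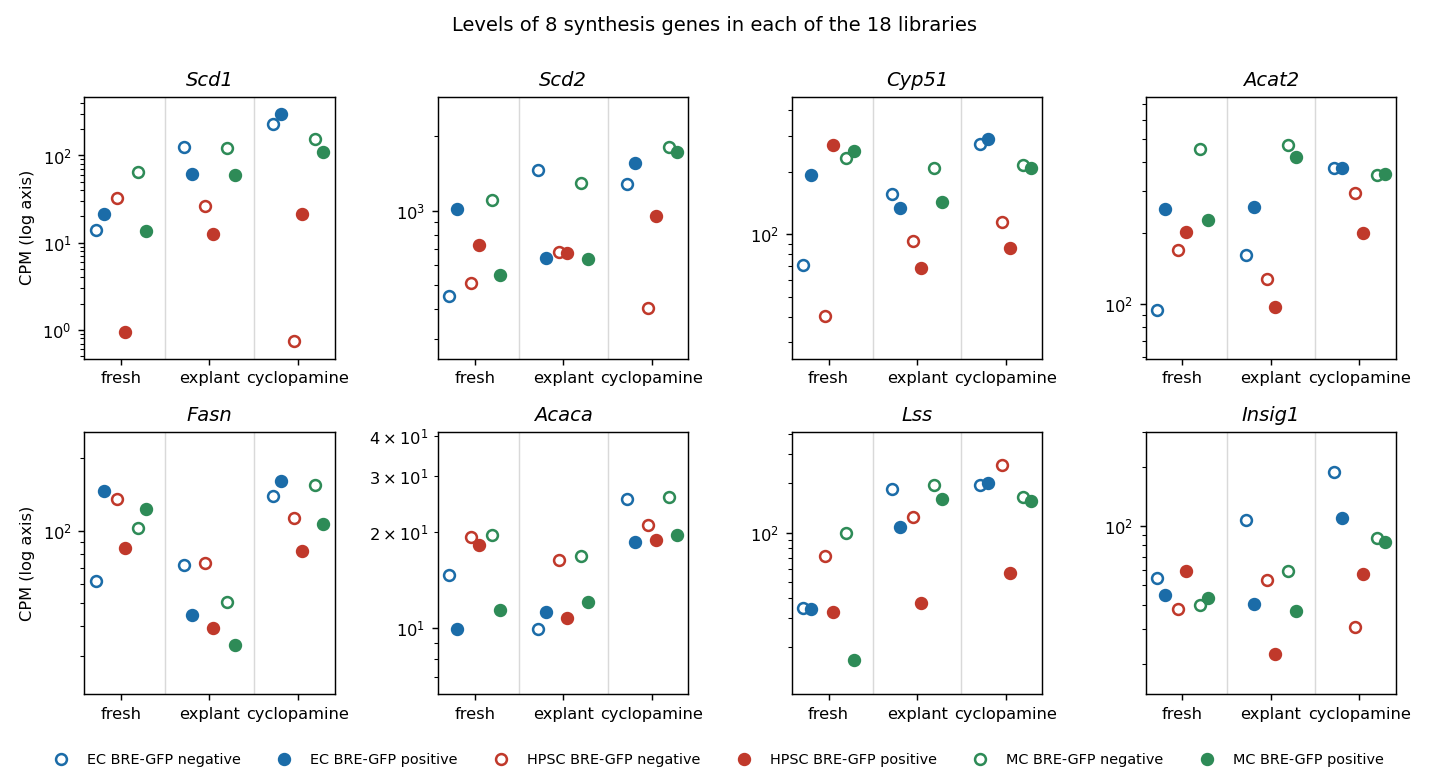
CPM of 8 genes in every library on log axes, by culture, with colour for the population and filled symbols for the BRE-GFP positive fraction. Fasn and Acaca lie higher in all 6 cyclopamine libraries than in any explant library, Lss has its lowest value, 16.6 CPM, in a fresh library, and Scd1 is below 1 CPM in 2 HPSC libraries.

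Between explant and fresh libraries no gene passed edgeR's test, and Lss and Fasn had the lowest p, in opposite directions. EdgeR called 0 of 29 genes (0.136% of all genes), 3 had an unadjusted p under 0.05 (8.58% of all genes), and DESeq2 called 2, Lss and Fasn (2.92% of all genes), and limma-voom 0 (1.02%). Fitted values were above 0 for 17 of 29 genes (59.8% of all genes), with a median of 0.05 against 0.18 for all genes. This median had no stable sign: it was -0.10 without EC fresh negative, with 14 genes above 0, and 0.18 without HPSC fresh positive, with 22 above 0, and with the share of reads outside annotated features as a covariate it was 0.51, with 21 above 0. Lss, which closes the sterol ring, lies on GRCm38 chromosome 10 (76531588 to 76557138, plus strand). Its level was 16.6 to 99.8 CPM in fresh libraries (median 34.5) and 37.3 to 194 CPM in explant libraries (median 143), higher in all 6 pairs (1.47 ± 0.38 SE, 2.76-fold, edgeR adjusted p = 0.196, DESeq2 adjusted p = 0.00650). Fasn stood at 61.8 to 146 CPM in fresh libraries (median 112) and 33.5 to 73.2 in explant libraries, lower in 5 of 6 pairs (-1.07 ± 0.31 SE, edgeR adjusted p = 0.255, DESeq2 adjusted p = 0.0122). Both pairs of ranges overlapped. Sc5d, the sterol desaturase, was at 0.82 ± 0.38 (SE, edgeR adjusted p = 0.568), higher in 4 of 6 pairs, and Hsd17b7, a sterol ketoreductase, was higher in all 6, of which the HPSC positive pair had 0 counts in its fresh library. Of the sterol ring enzymes 7 of 8 had fitted values above 0 (median 0.64), and all 3 fatty acid synthesis genes had values below 0 (median -0.26). Summed mesenchymal and steroidogenic markers were higher in explant in 5 of 6 pairs each, and summed proliferation genes were lower in all 6, at 1275 to 2443 CPM against 2338 to 3121 CPM in fresh libraries. Their part in these values was not tested.

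The comparison of cyclopamine with fresh libraries, which shares its libraries with the other culture comparisons, had 26 of 29 fitted values above 0 with a median of 0.39, where 44.1% of all genes were above 0 and their median was -0.12. EdgeR called 0 of 29 (0.129% of all genes), 4 had an unadjusted p under 0.05 (7.21% of all genes), and DESeq2 called 2, Lss and Scd1 (2.4% of all genes), and limma-voom 0 (0.32%). In the matched pairs the list median was 0.41 to 1.17 in the 4 EC and MC pairs, but -0.11 in HPSC negative, with 13 of 29 genes higher, and -0.03 in HPSC positive, with 12 higher. That difference between populations was not tested in this comparison. With the share of reads outside annotated features as a covariate, 21 of 29 genes were above 0 and the list median was 0.21. Lss stood at 56.3 to 256 CPM in cyclopamine libraries (median 180), higher than fresh in all 6 pairs (1.84 ± 0.38 SE, 3.58-fold, edgeR adjusted p = 0.0978, DESeq2 adjusted p = 2.55e-04). Scd1 was at 0.957 to 64.6 CPM in fresh and 0.754 to 295 CPM in cyclopamine libraries, where the HPSC cyclopamine libraries, at 0.754 and 21.2 CPM, lay below or within the fresh range (2.43 ± 0.85 SE, edgeR adjusted p = 0.525). Without HPSC cyclopamine negative, the edgeR adjusted p of Scd1 was 0.0477. That was the only 1 of 18 fits with a library left out in which Scd1 passed, and its adjusted p reached 0.831 in these fits. Scd2 was at 451 to 1106 CPM in fresh and 402 to 1814 CPM in cyclopamine libraries (0.77 ± 0.30 SE, edgeR adjusted p = 0.579). Hsd17b7 was at 0 to 50.2 CPM in fresh and 55.9 to 121 CPM in cyclopamine libraries, 1 of 29 genes with no overlap, where 0.222% of all genes were higher with no overlap (1.89 ± 0.74 SE, edgeR adjusted p = 0.580). Steroidogenic markers had 6 of 6 fitted values above 0 in the same comparison (median 1.75, none called), with a summed level of 0 to 40.4 CPM in fresh and 20.2 to 344 CPM in cyclopamine libraries. Summed mesenchymal markers were higher with cyclopamine in 5 of 6 pairs and summed proliferation genes lower in all 6. Their part in these values was not tested.

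Between BRE-GFP positive and negative fractions no gene passed the test. Fitted values were above 0 for 14 of 29 genes (57% of all genes), with a median of -0.01 against 0.11 for all genes, and edgeR called 0 of 29 (0.0554% of all genes), as did DESeq2 (2.67%) and limma-voom (0.45%), with 2 genes at an unadjusted p under 0.05 (5.3% of all genes). With any single library left out the list median ran from -0.15 to 0.06, lowest without EC fresh negative and highest without MC fresh positive. Lss was at 34.7 to 256 CPM in negative fractions (median 164) and 16.6 to 201 CPM in positive ones (median 56.3), lower in 8 of 9 pairs (-0.96 ± 0.33 SE, edgeR adjusted p = 0.734). Ebp was at 44.6 to 171 CPM in negative and 3.79 to 97.8 CPM in positive fractions, lower in 7 of 9 pairs (-0.88 ± 0.39 SE, edgeR adjusted p = 0.916). Sc4mol was at 58.1 to 420 and 103 to 428 CPM, higher in 7 of 9 pairs (0.46 ± 0.24 SE, edgeR adjusted p = 1.0). All 3 ranges overlapped. Sc5d was higher in the positive fraction in 8 of 9 pairs, with 109 ± 50.6 CPM (SD, 9 libraries) against 76.8 ± 45.0. Summed endothelial markers were higher in the positive fraction in all 9 pairs, and their part in these values was not tested.

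Within single populations, each with 2 pairs for culture and 3 for BRE-GFP, edgeR called 0 of 29 genes in all 9 contrasts. Of all genes it called 0.00616% for explant against fresh and 0.0123% for BRE-GFP in EC, 0.037% for BRE-GFP in HPSC and 0% in the other contrasts. At an unadjusted p under 0.05, explant against fresh had 1 gene of the list in EC (2.3% of all genes), 0 in HPSC (4.31%) and 4 in MC (2.48%). Cyclopamine against explant had 1 in EC (4.2%), 1 in HPSC (5.92%) and 1 in MC (0.659%), and BRE-GFP had 1 in EC (4.29%), 2 in HPSC (7.6%) and 0 in MC (0.431%). DESeq2 and limma-voom were not run within populations. The genes of lowest p follow. In EC, Lss was 2.04 ± 0.66 and Sc5d 1.29 ± 0.65 (log2, SE) higher in explant than in fresh libraries, and Fasn 1.33 ± 0.60 and Fads1 1.27 ± 0.64 higher with cyclopamine than in explant. In the same EC libraries summed mesenchymal markers were at 739 and 1149 CPM fresh, 3125 and 3716 CPM in explant and 3789 and 5175 CPM with cyclopamine (negative, then positive), and their part was not tested. In HPSC, Hsd17b7 was at 2.85 ± 1.496 and Fasn at -0.99 ± 0.60 in explant against fresh, and Acat2 at 1.13 ± 0.47 and Fads2 at -3.47 ± 1.88 with cyclopamine. The values of Hsd17b7 and Fads2 each rest on a library with 0 counts, HPSC fresh positive and HPSC cyclopamine negative. In MC, Lss was at 1.92 ± 0.68 and Sc4mol at 1.18 ± 0.46 in explant against fresh, and Fasn at 1.64 ± 0.60 and Scd2 at 0.99 ± 0.51 with cyclopamine. For BRE-GFP the genes of lowest p were Sc5d (1.26 ± 0.54) and Acat2 (0.70 ± 0.38) in EC, Lss (-1.69 ± 0.53) and Sc4mol (0.94 ± 0.37) in HPSC, and Scd2 (-0.70 ± 0.41) and Lss (-0.93 ± 0.55) in MC. Tests of the difference between populations called 0 of 29 genes and 0 of all genes for each of the 3 effects (0%), with no gene of the list at an unadjusted p under 0.05, where 0.998% of all genes were for explant against fresh, 1.56% for cyclopamine against explant and 2.27% for BRE-GFP. The lowest unadjusted p were 0.0824 for Sc4mol with cyclopamine, 0.113 for Sc5d with BRE-GFP and 0.164 for Sc5d in explant against fresh.

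The paralogue pairs differed in level and spread. Scd1 and Scd2 lie close together on GRCm38 chromosome 19 (44394455 to 44407879, minus strand, and 44293674 to 44306864, plus strand). Scd2 was high everywhere, at 402 to 1814 CPM, and lowest in HPSC cyclopamine negative, where Scd1 was lowest too. Scd1 stood at 109 to 295 CPM in the 4 cyclopamine libraries of EC and MC and at 13.8 to 64.6 CPM in the 4 fresh ones. The explant libraries of EC and MC stood at 59.3 to 125 CPM and overlapped both ranges. In HPSC, Scd1 was at 0.754 and 21.2 CPM with cyclopamine and at 32.9 and 0.957 CPM fresh (negative, then positive). With HPSC included, Scd1 ran from 0.754 to 295 CPM with cyclopamine and from 0.957 to 64.6 CPM fresh, and these ranges overlapped. The view without HPSC was chosen after the values were seen, and the share of all genes that separate in it was not computed. Fads1 and Fads2 are neighbours on the same chromosome (10182888 to 10196877, plus strand, and 10062765 to 10101746, minus strand). Fads1 stood at 32.4 to 297 CPM, lowest in MC fresh positive, and Fads2 at 0 to 86.3 CPM, highest in that same library. Srebf1 and Srebf2 had similar levels, at 1.13 to 43.1 and 12.8 to 43.2 CPM. Srebf2 was at 13.8 to 26.1 CPM in explant and 20.0 to 43.2 CPM in cyclopamine libraries, higher in 5 of 6 pairs (0.69 ± 0.50 SE, edgeR adjusted p = 0.898), and Srebf1 was at 0.19 ± 0.68 (SE, edgeR adjusted p = 0.999). Neither was called in any comparison.

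Genes around the pathway were counted from 4 further lists. Of the 9 SREBP and SCAP control genes, the 12 genes of the isoprenoid branch, the 20 other genes of fatty acid and glyceride synthesis and the 15 genes of LXR response, efflux, esterification and lysosomal export, 3 of 56 genes in all (5.36%) were called in any of the 7 comparisons over all populations, against 10.2% of all genes. Abcg1, an exporter of cholesterol, was at 368 ± 194 CPM (SD, 6 libraries) in HPSC, 189 ± 61.3 in EC and 28.8 ± 12.9 in MC, lower in MC than in EC (-2.89 ± 0.36 SE, edgeR adjusted p = 1.15e-04) and higher in HPSC than in MC (3.69 ± 0.37 SE, edgeR adjusted p = 8.14e-06). Cyp7b1, an oxysterol hydroxylase, was at 0.542 ± 1.11 CPM in HPSC and 23.1 ± 5.93 CPM in MC (-7.27 ± 1.401 SE, edgeR adjusted p = 0.00320). Elovl1, which lengthens saturated fatty acids, was at 264 ± 132 CPM in HPSC and 130 ± 53.6 CPM in MC (1.004 ± 0.30 SE, edgeR adjusted p = 0.0429). In cyclopamine against explant edgeR called 0 of all 16231 genes (0%), so no list could have a called gene there.

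Across the 18 libraries the genes of the list varied together in part. Over 406 gene pairs the median Pearson r of log2 CPM was 0.26, from -0.69 for Mvk with Ebp to 0.83 for Fdft1 with Acat2, and 321 pairs were above 0. Scd2 followed the mean of the other genes most closely (r = 0.85), then Sc4mol (0.78) and Scd1 (0.75). Ebp (-0.02) and Stard4 (-0.18) did not follow it, and Fasn followed it weakly (0.25). Outside the list, of 9330 genes with a mean of at least 10 CPM, Cercam (0.87), Nav2 (0.86) and Prickle1 (0.86) had the levels most like the mean of the list, followed by Vasn, Papss1, Maged1, Pdpn, Acadsb, Mme and Klhl13 (0.81 to 0.84). These are descriptions over libraries that share populations and cultures and differ in depth.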

How the data were processed

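Each of the 18 libraries came with a table of read counts per gene symbol. The authors deposited counts; TopHat, Cufflinks, HTSeq and mm10 are named in the submitters' processing notes, and no version, gene annotation or strandedness is given in the sources used here. RNA was prepared with a mirVana kit and the SMARTER protocol, per the labels' protocols. Rows that name no gene were left out of library sizes. A gene was kept when 3 or more libraries reached 0.796 CPM, which is 10 counts in a library of median size. Counts were fitted with edgeR 4.0.16 (TMM scaling, quasi-likelihood test, Benjamini-Hochberg adjustment over all 16231 genes, R 4.3.3), threshold 0.05. Population effects were fitted with the 6 culture and fraction combinations as blocks, culture effects with 6 population and fraction blocks, and BRE-GFP effects within 9 pairs. These blocks come from the factorial labels and not from shared embryos. Log2 CPM used a prior count of 2. Each SE of an edgeR log2 fold change was derived from the test, as the absolute change over the square root of its F statistic. DESeq2 1.42.0 and limma 3.58.1 (voom) were alternatives. Common biological coefficients of variation were 0.884 to 0.922. The test was checked on simulated counts with known changes. At a simulated coefficient of variation of 0.9 it recovered 0% of 2-fold changes in HPSC against MC and in cyclopamine against explant. In the same order it recovered 6% and 0% of 4-fold, 20% and 20% of 8-fold and 60% and 70% of 16-fold changes. With a coefficient of 0.3 it recovered 68% and 74% of 2-fold changes. A gene that was not called is therefore not shown to be unchanged. Genes that DESeq2 gave no adjusted p are left out of its shares. Named genes are those called, or else the 3 of lowest p in a comparison (2 within a population), plus the paralogue pairs; genes named because groups did not overlap or every pair moved one way were chosen after their values were seen. The share of all genes that moved one way in every pair is given only for HPSC against EC and for cyclopamine against explant. In the other comparisons such moves are descriptions of single genes. The members and lists were chosen with earlier results of these data known. Gene positions and exons are from GENCODE M21 on GRCm38, which is mm10. The levels of the Hedgehog response genes are not reported here.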

Additional observations from a re-analysis of the deposited data

How the results depend on the processing

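The number of list genes called depended on the tool, the design and single libraries. In HPSC against MC it was 5 with DESeq2 (23% of all genes), 7 with limma-voom (17.7%), 1 without blocks (10.4%) and 1 with the share of reads at no feature as a covariate (3.19%), and it ranged from 0 to 5 with 1 library left out (5 without MC fresh positive, where 10.1% of all genes were called). In HPSC against EC DESeq2 called 1, and leaving out libraries gave 0 to 1. In explant against fresh DESeq2 called 2. In cyclopamine against explant DESeq2 and limma-voom called 1 each. In cyclopamine against fresh DESeq2 called 2, and leaving out libraries gave 0 to 1. The covariate and the removal of the 2 libraries of fewest counts were added after the data were seen. With the covariate the list median was -0.44 in cyclopamine against explant and 0.51 in explant against fresh, and Fads1 in cyclopamine against explant turned to -0.044. The causes of these changes were not tested. Without the 2 libraries of fewest counts, edgeR called 3 genes of the list in HPSC against MC (8.47% of all genes), not the same 3 as with all libraries. Its adjusted p was then 0.0228 for Acat2, 0.0541 for Cyp51 and 0.0561 for Scd1. At these depths Tm7sf2, Hsd17b7, Fads2 and Stard4 each had 0 counts in 1 library, which limits the precision of their fold changes.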
